A study of Mus musculus with 118 samples.

Results

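The genes described here are 10 mouse cadherins, Cdh6, Cdh7, Cdh8, Cdh9, Cdh10, Cdh11, Cdh12, Cdh13, Cdh18 and Cdh20, out of the 23998 gene symbols of the count table. They were chosen by name from the cadherin family with earlier results of these same cells known. The levels and differences below are of the kind that led to that choice, so they are given as a description and carry no test. Each of the 10 genes had its own entry in the table, and none was dropped for low values.

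Classical cadherins are single-pass membrane proteins whose outer domains bind cadherins of a neighbouring cell in the presence of calcium, while the inner tail holds catenins that connect it to actin. Type II cadherins are a branch of this family in which members bind themselves and a few close relatives, and in the forebrain they mark areas, layers and neuron types. By binding preference the type II genes described here fall into the groups Cdh8 and Cdh11, then Cdh6, Cdh9 and Cdh10, then Cdh7, Cdh12, Cdh18 and Cdh20. Cdh13, also called T-cadherin, lacks the inner tail, is held in the membrane by a GPI anchor and stands outside these groups.

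The cells were somatostatin-positive (SOM+) interneurons of adult SOM-Cre/Ai9 mice, in which Cre made in cells that use the Sst gene switches on a red reporter. Labelled neurons were patched in primary visual cortex (V1) or primary somatosensory cortex (S1), in layer 4 (L4) or layer 5 (L5), and the RNA drawn into the pipette was sequenced cell by cell (Patch-seq). All 4 groups shared this genotype and no group was treated. A cell was kept with at least 1500 detected genes, at least 1 Sst read, and no more Slc17a7 (a glutamate transporter of excitatory cells) than Gad1 and Gad2 (which make GABA) together, which left 42 of 44 L4 cells of V1, 34 of 39 L4 cells of S1, 17 of 19 L5 cells of V1 and 16 of 16 L5 cells of S1.

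The labels name no animal, so the cells of a group cannot be assigned to mice, each group counts as 1 sample of many cells, and no p-value is given. SDs over cells describe the spread between cells. The titles carry 9 dates, numbered 1 to 9 here. The labels do not say which step is dated, and a difference was also taken within each date that held at least 2 kept cells of both groups, with its SD over dates. Per the methods, fewer mice were used for Patch-seq than there are dates, so dates may share animals, and an SD over dates is not a spread between animals. Kept cells held 97904 to 3295232 reads counted in genes, with group medians of 1015272 to 1199868 reads. No cell lay close to the gene limit, since the most complete of the 4 cells below it had 1153 genes and the least complete above it had 1978. All 7 SOM interneuron markers were read in each group. Markers of other cells were read too: the 6 oligodendrocyte genes summed to 731 counts per 1000000 reads (CPM) in S1 L5 and 1115 in S1 L4, against 239 in V1 L5 and 267 in V1 L4, while the 6 excitatory genes summed to 7.50 CPM in S1 L4, 10.6 in V1 L5, 17.1 in S1 L5 and 18.01 in V1 L4. The 7 microglial genes summed to 132.5 CPM in S1 L5 against 520 in V1 L5, and to 170.4 in S1 L4 against 239 in V1 L4. The 5 astrocyte genes summed to 128.2 CPM in S1 L5, 130.1 in V1 L5, 268 in S1 L4 and 371 in V1 L4.

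The 10 genes lay on 3 chromosomes of the mouse genome (GRCm38, GENCODE M21). Cdh6, Cdh9, Cdh10, Cdh12 and Cdh18 lay within 10.4 Mb of chromosome 15, Cdh8, Cdh11 and Cdh13 within 20.3 Mb of chromosome 8, and Cdh20 and Cdh7 within 5.37 Mb of chromosome 1. Neighbours were not always read alike: Cdh7 had reads in 88 of the kept cells and Cdh20 in 1, while Cdh8 had reads in 60 and Cdh11 in 66. No pair of the 10 genes shared a stretch of 75 bases, the read length, in their transcripts. RefSeq promoter windows (GRCm38.p6, 250 bases before to 50 after a start site) were found for 8 of the 10 genes, with 3 windows for Cdh7. The windows of Cdh8 and Cdh10 are shown because these 2 genes were lower together in S1 L4, and that of Cdh7 (the first of its windows) because its level separated the layers.
Cdh8 (chr8:99416422-99416721, minus strand): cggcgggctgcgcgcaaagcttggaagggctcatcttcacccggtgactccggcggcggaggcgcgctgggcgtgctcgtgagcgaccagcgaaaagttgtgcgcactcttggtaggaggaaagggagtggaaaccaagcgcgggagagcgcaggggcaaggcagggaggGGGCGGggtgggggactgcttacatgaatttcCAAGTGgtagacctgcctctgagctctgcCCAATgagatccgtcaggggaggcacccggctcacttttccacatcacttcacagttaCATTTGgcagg
Cdh10 (chr15:18820079-18820378, plus strand): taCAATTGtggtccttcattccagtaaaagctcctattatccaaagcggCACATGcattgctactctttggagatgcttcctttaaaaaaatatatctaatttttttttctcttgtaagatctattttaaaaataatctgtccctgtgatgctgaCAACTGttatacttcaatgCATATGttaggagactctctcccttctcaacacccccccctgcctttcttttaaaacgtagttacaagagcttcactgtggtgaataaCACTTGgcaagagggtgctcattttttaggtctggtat
Cdh7 (chr1:109982650-109982949, plus strand): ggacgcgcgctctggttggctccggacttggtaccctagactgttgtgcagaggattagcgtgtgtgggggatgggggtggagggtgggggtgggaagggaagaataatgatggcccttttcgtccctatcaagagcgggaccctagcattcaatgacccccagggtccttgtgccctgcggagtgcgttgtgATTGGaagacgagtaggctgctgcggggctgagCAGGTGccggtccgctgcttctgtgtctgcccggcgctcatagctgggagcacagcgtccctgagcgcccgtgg
Capitals mark every match, on either strand, to 5 short motifs chosen after the data were seen: the E-box CANNTG, the homeodomain core TAATTA, the GC box GGGCGG, the CCAAT box CCAAT and the TATA box TATAAA. The Cdh8 window held 2 E-boxes, 1 GC box and 1 CCAAT box, the Cdh10 window 5 E-boxes, and the Cdh7 window 1 E-box and 1 CCAAT box. Neither TAATTA nor TATAAA was in the 3 windows shown, and no matches overlapped in them. Window 3 of Cdh7, which is not shown, held 1 TAATTA. Of 32851 mouse windows of the same length, 72.3% held the E-box, 35.7% the GC box, 37.4% the CCAAT box, 13.6% the TATA box and 5.29% TAATTA. The 3 windows shown differed in base composition, with a GC share of 62.3% for Cdh8, 62.7% for Cdh7 and 37.7% for Cdh10. The median over all mouse windows was 52.7%. Of the Cdh7 windows not shown, window 2 had 60.7% and window 3 had 49.7%. A match describes letters and is no evidence of binding.

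Of the 10 genes, 6 were read in most cells or nearly so, and the other 4 in few. Cdh13 was read in 93.6% of all kept cells, Cdh7 in 88 cells, Cdh9 in 87, Cdh11 in 66, Cdh10 in 63 and Cdh8 in 60. Cdh18 was read in 27 cells, Cdh12 in 17, Cdh6 in 7 and Cdh20 in 1. A gene tended to be either at 0 or well above it within the same group, as the plot of single cells shows, so means below combine the share of cells with reads and the level in those cells. In picked single cells, a gene at 0 may be unused or missed in the drawn RNA.

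**Figure D1:**
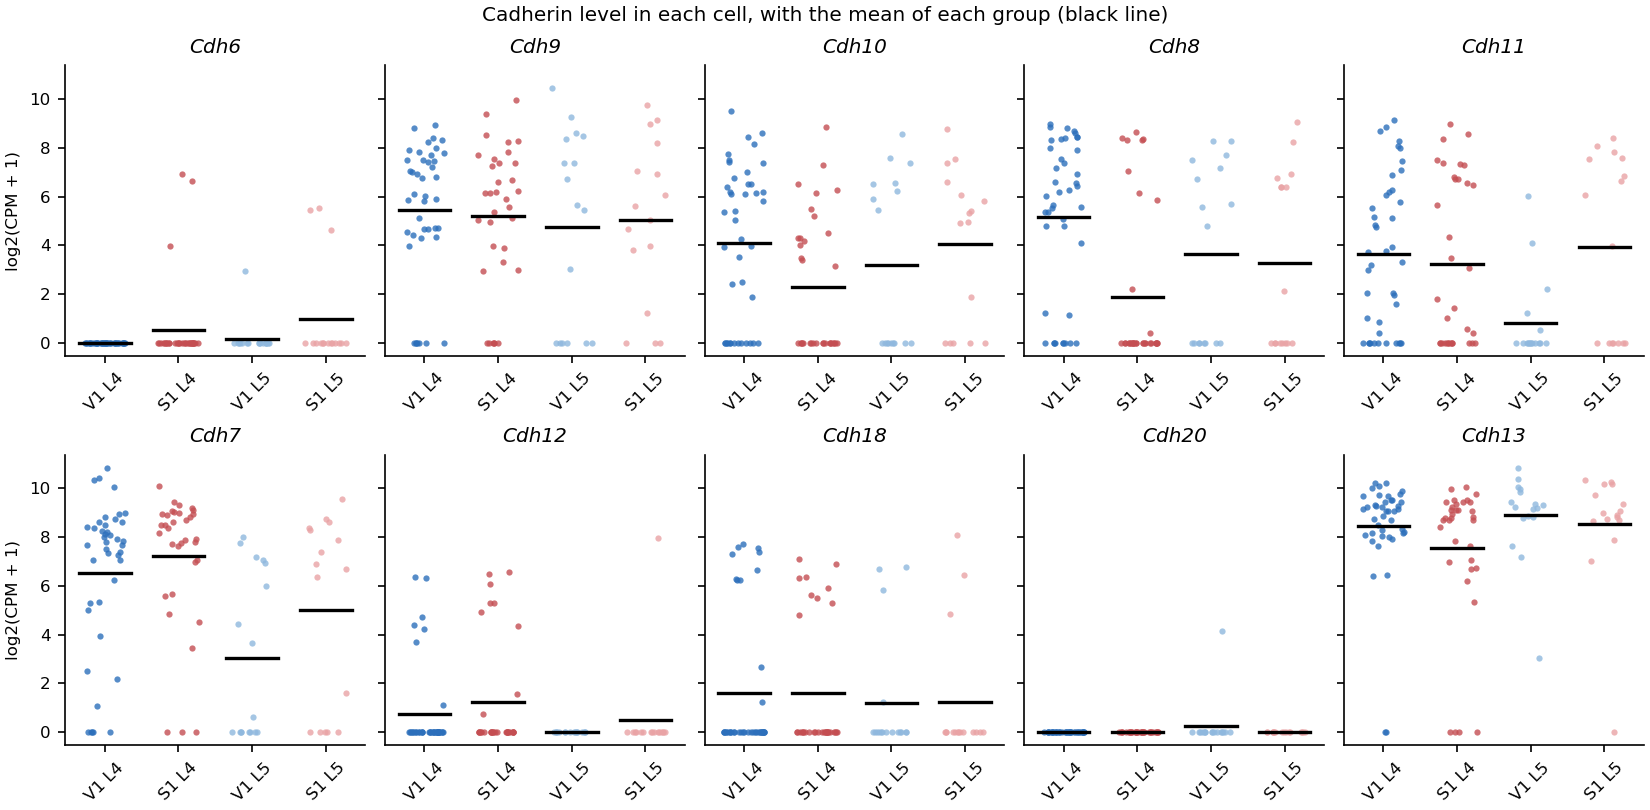
Level of each cadherin in each kept cell, as log2(CPM + 1) on the vertical axis, by cortical area and layer on the horizontal axis; each point is 1 cell and the black line is the group mean. Cdh8 and Cdh10 sit lower in S1 L4 than in V1 L4, Cdh7 sits lower in both L5 groups, and Cdh6 and Cdh20 lie at 0 in nearly every cell.

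Of the Cdh6, Cdh9 and Cdh10 group, Cdh9 was the most widely read. Cdh9 ranged from 0 to 491 CPM with a median of 65.9 in V1 L4, from 0 to 1001 with a median of 63.8 in S1 L4, from 0 to 1409 with a median of 48.9 in V1 L5 and from 0 to 865 with a median of 40.1 in S1 L5. The 4 ranges overlapped throughout. Cdh10 ranged from 0 to 736 CPM with a median of 36.1 in V1 L4, from 0 to 464 with a median of 0 in S1 L4, from 0 to 376 with a median of 0 in V1 L5 and from 0 to 437 with a median of 34.9 in S1 L5. Cdh6, which is best known from the developing brain and kidney, was not read in V1 L4 (0 of 42 cells, which allows a share of up to 7.14% by a limit of 3 cells, and up to 8.41% by the 95% Clopper-Pearson interval). In S1 it was read in 3 of 34 L4 cells, at up to 120 CPM, and in 3 of 16 L5 cells, and in V1 L5 it was read in 1 of 17. Of the 410 Cdh6 reads of S1 L4, 67.8% came from 1 cell.

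In the Cdh8 and Cdh11 group both genes were read in a majority of V1 L4 cells. Cdh8 ranged from 0 to 511 CPM with a median of 68.0 in V1 L4, from 0 to 404 with a median of 0 in S1 L4, from 0 to 315 with a median of 26.4 in V1 L5 and from 0 to 534 with a median of 1.66 in S1 L5. V1 L4 thus had the highest median and S1 L4 the lowest, although the S1 L4 cells that had reads held a median of 226 CPM against 95.8 in the V1 L4 cells with reads. Cdh11, which is also used by mesenchymal and bone-forming cells, ranged from 0 to 563 CPM with a median of 10.6 in V1 L4, from 0 to 500 with a median of 2.07 in S1 L4, from 0 to 64.8 with a median of 0 in V1 L5 and from 0 to 341 with a median of 40.1 in S1 L5. Its highest V1 L5 cell was below the highest cell of each other group, and that cell held 84.0% of the Cdh11 reads of V1 L5.

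Cdh7 was the most widely read of the Cdh7, Cdh12, Cdh18 and Cdh20 group. It ranged from 0 to 1847 CPM with a median of 214 in V1 L4, from 0 to 1106 with a median of 311 in S1 L4, from 0 to 256 with a median of 0.536 in V1 L5 and from 0 to 754 with a median of 110 in S1 L5. Both L4 medians were above both L5 medians, while single cells overlapped. Cdh18 had a median of 0 in each group and was read in 18.8% of S1 L5, 23.5% of V1 L5, 26.2% of V1 L4 and 26.5% of S1 L4 cells. Cdh12 was read in 9 of 34 L4 cells of S1 and 7 of 42 of V1, but in 1 of 16 L5 cells of S1 and 0 of 17 of V1, which allows a share of up to 17.6% by the limit of 3 cells and 19.5% by the interval. Cdh20 was read in a single V1 L5 cell, with 7 reads.

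Cdh13, a receptor for adiponectin and low-density lipoprotein as well as an adhesion protein, was the most widely read of the 10 genes over all kept cells. It ranged from 0 to 1208 CPM with a median of 545 in V1 L4, from 0 to 1076 with a median of 438 in S1 L4, from 7.12 to 1821 with a median of 611 in V1 L5 and from 0 to 1312 with a median of 493 in S1 L5. Every V1 L5 cell had reads, and 2 V1 L4, 4 S1 L4 and 1 S1 L5 cells had none.

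**Figure D2:**
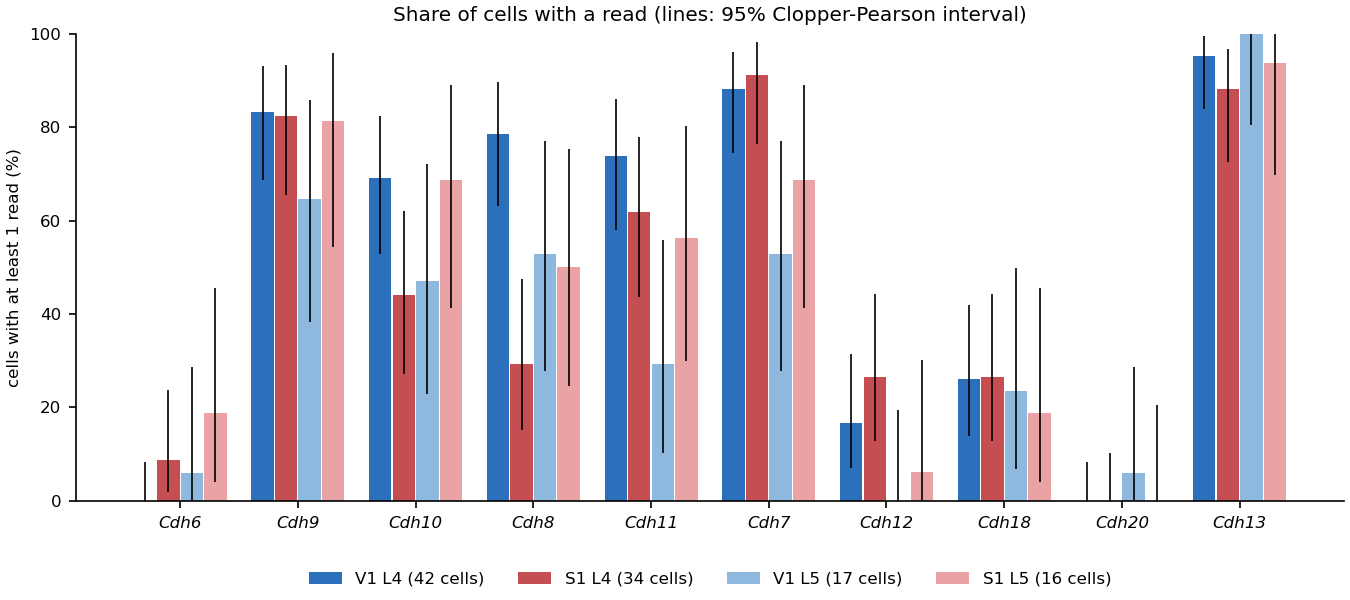
Share of cells with at least 1 read of each cadherin, in percent, for the 4 groups of cells; the lines are 95% Clopper-Pearson intervals, which cover counting error only. For Cdh8 the interval is 63.2% to 89.7% in V1 L4 and 15.1% to 47.5% in S1 L4. The intervals take cells as independent, so they are no test of a difference between areas.

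The first comparison asked how the same layer differed between the areas. In L4, Cdh8 and Cdh10 were lower in S1 than in V1, and no member was higher past the fold used here, a difference of 1 in mean log2(CPM + 1), or a fold change of 2 on that scale. Cdh8 had a mean of 1.88 ± 3.31 (SD over cells, n = 34) in S1 L4 and 5.18 ± 3.25 (n = 42) in V1 L4, a difference of -3.30 with an SD of 1.70 over 5 dates. It was lower in S1 on each of the 5 dates. Cdh10 had a mean of 2.27 ± 2.80 in S1 L4 and 4.12 ± 3.21 in V1 L4, a difference of -1.85 with an SD of 0.50 over the dates. It too was lower in S1 on each of them.

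The share of cells with reads moved with the means. Of the L4 cells, Cdh8 was read in 10 of 34 in S1 (29.4%) against 33 of 42 in V1 (78.6%). By date, S1 and V1 cells with a Cdh8 read were 1 of 4 and 7 of 11 on date 2, 2 of 6 and 2 of 2 on date 3, 1 of 2 and 2 of 3 on date 5, 5 of 9 and 11 of 12 on date 7, and 0 of 2 and 7 of 9 on date 8. Cdh10 was read in 15 of 34 in S1 (44.1%, 95% interval 27.2% to 62.1%) against 29 of 42 in V1 (69.0%, interval 52.9% to 82.4%). Its intervals overlapped, and such intervals take cells as independent and hold no spread between animals. When each cell was thinned to 250000 reads, Cdh8 was read in 8 of 34 cells in S1 and 31 of 42 in V1, and Cdh10 in 15 of 34 and 29 of 42. Pooled over cells, Cdh8 stood at 47.4 CPM in S1 L4 (95% Poisson interval 45.5 to 49.4) against 140 in V1 L4, and Cdh10 at 38.6 CPM (36.8 to 40.4) against 82.3 (79.9 to 84.8). The Poisson intervals cover the counting of reads only and leave out the spread between cells. In S1 L4, 51.1% of the Cdh10 reads came from 1 cell.

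Split by date, both genes had the same direction in each stretch. The stretches are parts of the same cells, so this is a description and no separate support. In the earlier 6 dates the S1 minus V1 difference was -3.33 for Cdh8 and -2.34 for Cdh10, and in the later 3 it was -3.37 and -1.35. Of the genes with the minimum counts given below, 30.5% were past the fold in the earlier stretch and 31.7% in the later. Cdh7 did not keep its direction: it was 2.41 higher in S1 in the earlier stretch and -0.97 in the later, with 0.69 over all cells and an SD of 2.74 over dates. The other members had differences from -0.92 for Cdh13 to 0.52 for Cdh6, and each was smaller than its SD over dates, while Cdh20 had no reads in L4. As background, 15.8% of the 9201 genes with at least 32 counts in at least 10 of the compared cells were past the fold in either direction, and 1.89% were past it with S1 lower on every date. Of the members 2 of 10 were past it, both lower in S1 on every date. The minimum was met by 7 members, and both genes past the fold were among them. Among all 16996 genes with a read in the compared cells, the shares were 8.9% and 1.08%. The members were chosen with this contrast known, so nothing is read from their count. The median difference of the 10 members was -0.13, beside 0.01 over the genes tested. Pooled over cells, oligodendrocyte reads were higher in S1 L4, and microglial and astrocyte reads lower, as given above. The median cell went the other way for the microglial genes (189.8 CPM in S1 L4, 91.0 in V1 L4). It also did so for the astrocyte genes (158.4 and 86.6 CPM). The part of these reads in the differences was not tested.

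**Figure D3:**
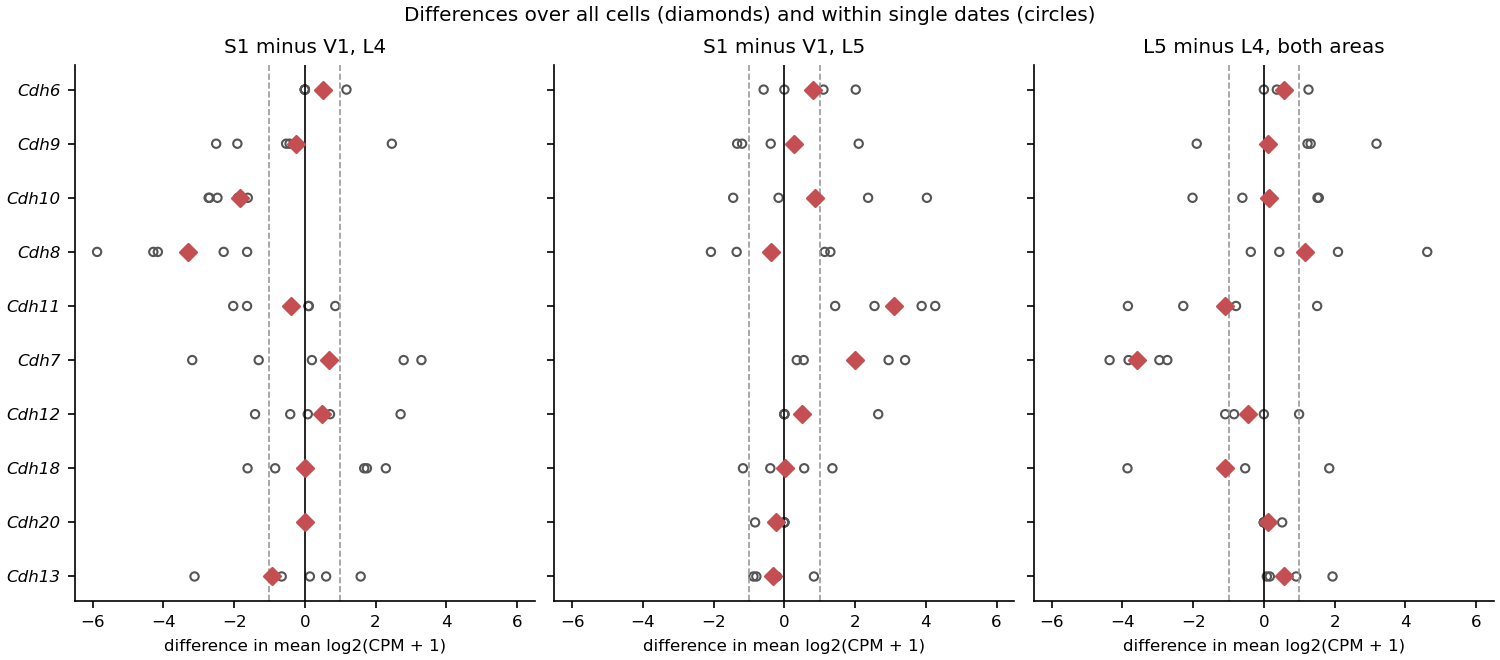
Differences in mean log2(CPM + 1) for the 10 cadherins in 3 comparisons, over all compared cells (red diamonds) and within single dates (grey circles); the dashed lines mark a difference of 1 in either direction. Cdh8 and Cdh10 lie left of 0 on each date in the L4 panel, Cdh11 and Cdh7 right of 0 on each date in the L5 panel, and Cdh7 left of 0 on each date in the layer panel.

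In L5 a different pair was past the fold, as were 33.6% of the genes with the minimum counts. Cdh11 and Cdh7 were higher in S1 than in V1, and no member was lower past the fold. Cdh11 had a mean of 3.94 ± 3.72 (SD over cells, n = 16) in S1 L5 and 0.83 ± 1.74 (n = 17) in V1 L5, a difference of 3.11 with an SD of 1.29 over 4 dates. It was higher in S1 on each of the 4 dates. Of the L5 cells, 9 of 16 in S1 (56.2%, 95% interval 29.9% to 80.2%) had Cdh11 reads against 5 of 17 in V1 (29.4%, interval 10.3% to 56.0%). At least 32 reads were counted in 8 of the S1 L5 cells and 1 of the V1 L5 cells, so Cdh11 fell short of the minimum of 10 cells that the background genes had to meet.

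Cdh7 had a mean of 5.02 ± 3.91 in S1 L5 and 3.04 ± 3.41 in V1 L5, a difference of 1.98 with an SD of 1.59 over dates. It was higher in S1 on each date, by 3.41 on date 3, 0.55 on date 4, 0.35 on date 5 and 2.95 on date 6, and its intervals for the share of cells with reads overlapped. Cdh8 and Cdh10, which separated the areas in L4, differed by -0.36 and 0.86 in L5, each less than its SD over dates of 1.72 and 2.47. Whether the area difference itself changed with layer was not tested. As background, 33.6% of 6402 genes were past the fold in L5 in either direction, and 8.54% were past it with S1 higher on every date, beside 2 of 10 members, both higher in S1 on every date. Among all 15323 genes with a read the shares were 21.1% and 5.17%. The minimum was met by 5 members, Cdh7 among them but not Cdh11. Nothing is read from the count of members past the fold. Oligodendrocyte reads were higher and microglial reads lower in S1 L5, and their part was not tested. The median difference was 0.38 over the members and 0.24 over the genes tested.

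The second comparison set L5 beside L4 on the 4 dates that held L5 cells, and Cdh7 was the member that differed the same way throughout. Over both areas it had a mean of 4.00 in 33 L5 cells and 7.58 in 19 L4 cells, a difference of -3.58 with an SD of 0.76 over 4 dates. The difference was -4.36 on date 3, -2.73 on date 4, -2.96 on date 5 and -3.83 on date 6. It was lower in L5 in each area taken alone, with a difference of -2.72 in V1 (17 against 7 cells, 2 dates) and -3.61 in S1 (16 against 12 cells, 3 dates), again on every date. Leaving out each date in turn gave -3.89 to -3.18 over both areas. Over all dates Cdh7 was read in 9 of 17 L5 and 37 of 42 L4 cells of V1, and in 11 of 16 L5 and 31 of 34 L4 cells of S1.

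Other members past the fold between layers did not keep a direction over dates or areas. Over both areas these were Cdh8 at 1.17, Cdh11 at -1.10 and Cdh18 at -1.11, each smaller than its SD over dates of 2.20, 2.28 and 2.34. In V1 they were Cdh10 at -2.09, Cdh18 at -1.83 and Cdh13 at 1.05, each with 1 date in either direction, and Cdh11 at -1.81, lower in L5 on both dates. In S1 they were Cdh8 at 2.02 and Cdh10 at 1.63, each higher in L5 on 2 of 3 dates. Cdh11 and Cdh18 in V1, and Cdh8 and Cdh10 in S1, fell short of the minimum counts that the background genes had to meet. The background was high in these small comparisons. In V1, 39.3% of 4778 genes were past the fold and 17.9% were past it with L5 lower on every date. In S1, 35% of 5895 genes were past the fold and 6.16% with L5 lower on every date. Over both areas, 23.7% of 8124 genes were past the fold and 4.64% with L5 lower on every date, and of the members 4 of 10 and 1 of 10. Among all genes with a read, the shares were 29.7% and 12.4% in V1, 23.9% and 3.76% in S1, and 13.9% and 2.6% over both areas. The V1 count of 5 members past the fold became 3 without date 5, the S1 count of 3 became 5 without date 6, and the count of 4 over both areas became 2 without date 6.

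Most cells held several of these cadherins at once. A V1 L4 cell had reads of 5.31 ± 1.39 members (SD over cells, n = 42), an S1 L4 cell of 4.59 ± 1.64 (n = 34), a V1 L5 cell of 3.82 ± 1.55 (n = 17) and an S1 L5 cell of 4.62 ± 1.36 (n = 16). V1 L4 had the highest mean and V1 L5 the lowest, and the cells of all groups overlapped. The number ran from 1 to 8 of 10, and across all kept cells it had a Pearson r of 0.37 with the log of the cell's total reads, 2 values that share the same library. Thinned to 250000 reads per cell, the means were 5.10, 4.35, 3.87 and 4.53, with 3 L5 cells left out for too few reads.

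**Figure D4:**
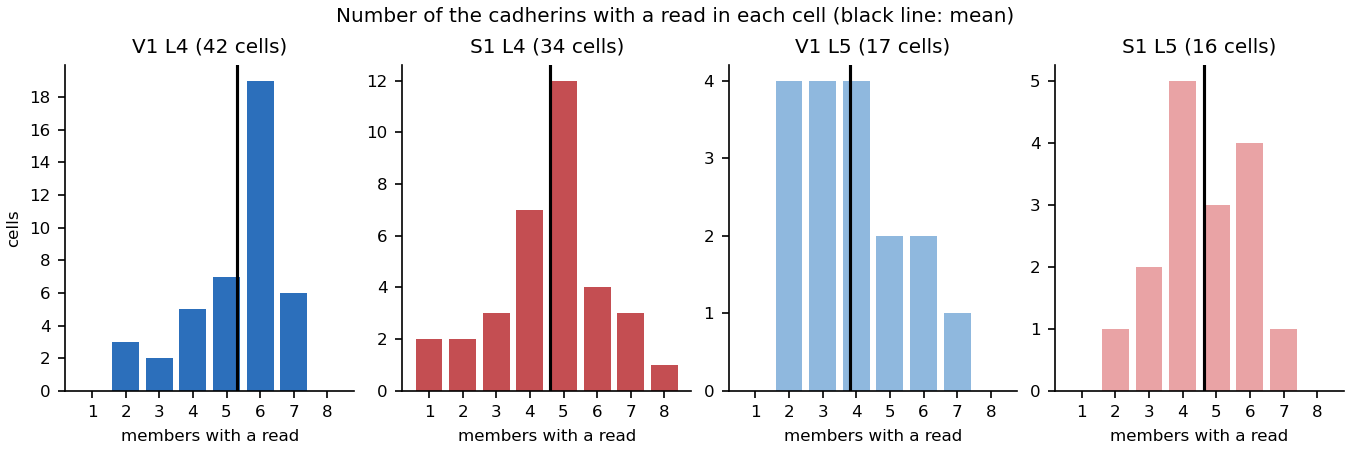
Number of cells (vertical axis) with reads of a given number of the 10 cadherins (horizontal axis), for each group; the black line is the mean. V1 L4 peaks at 6 members (19 of 42 cells) and S1 L4 at 5 (12 of 34 cells).

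The kept cells held 54 different combinations, 32 of them in a single cell. The most common was Cdh9, Cdh10, Cdh8, Cdh11, Cdh7 and Cdh13 together, found in 12 cells, of which 11 were V1 L4 cells, 1 was a V1 L5 cell and none was in S1. The same set without Cdh10 and Cdh8, that is Cdh9, Cdh11, Cdh7 and Cdh13, was found in 7 cells, of which 6 were S1 L4 cells and 1 was an S1 L5 cell. This split repeats the area difference of Cdh8 and Cdh10 and is no separate result. Cdh9, Cdh10, Cdh7 and Cdh13 together were in 7 cells, 4 of them in S1 L5.

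**Figure D5:**
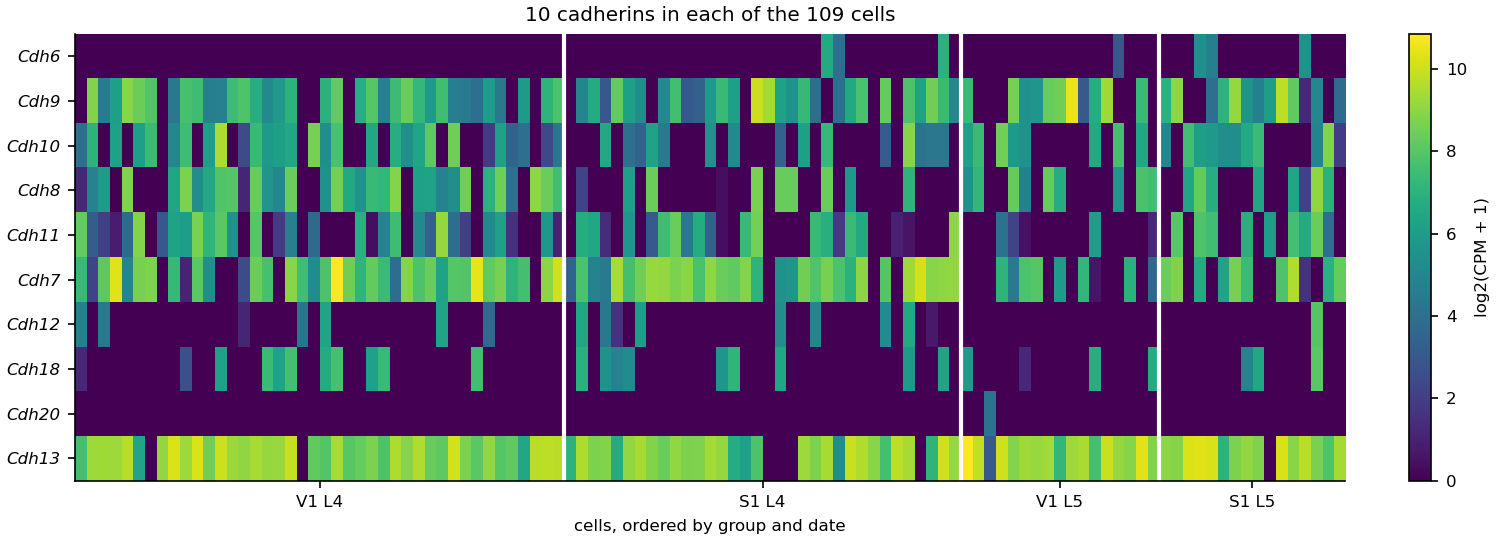
Level of the 10 cadherins (rows) in each kept cell (columns, ordered by group and date), as log2(CPM + 1) by colour. Rows for Cdh13, Cdh7 and Cdh9 are filled in most cells, and the rows for Cdh8 and Cdh10 are emptier in S1 L4 than in V1 L4.

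Counted by binding group, at least 1 of Cdh6, Cdh9 and Cdh10 was read in 98 cells, at least 1 of Cdh7, Cdh12, Cdh18 and Cdh20 in 94, and Cdh8 or Cdh11 in 82. These counts cover the 10 genes only. Cdh22, which is placed with the Cdh7 group, was read in 37 kept cells and was not counted. Cdh24, placed with Cdh8 and Cdh11, was read in 14 and was not counted either. All 3 type II groups were read in 6 of 17 L5 cells of V1 (35.3%, 95% interval 14.2% to 61.7%), 8 of 16 L5 cells of S1 (interval 24.7% to 75.3%), 21 of 34 L4 cells of S1 (61.8%, interval 43.6% to 77.8%) and 33 of 42 L4 cells of V1 (78.6%, interval 63.2% to 89.7%). Cdh8 and Cdh11 were read together in 44 cells, which is 73.3% of the cells with Cdh8 and 66.7% of those with Cdh11. Cdh12 was mostly read beside Cdh7, in 16 of its 17 cells, while Cdh7 had reads in 88 cells. Over all kept cells, levels of 2 members followed each other little. For the 28 pairs of the 8 members read in at least 10 cells, Pearson r of log2(CPM + 1) ran from -0.15 for Cdh8 with Cdh7 to 0.28 for Cdh10 with Cdh8. Within single groups r ran wider. In V1 L4 it ran from -0.27 (Cdh10 with Cdh12) to 0.52 (Cdh8 with Cdh13), and in S1 L4 from -0.29 (Cdh10 with Cdh11) to 0.41 (Cdh12 with Cdh18). In V1 L5 it ran from -0.23 (Cdh8 with Cdh7) to 0.47 (Cdh11 with Cdh18). In S1 L5 it ran from -0.58 (Cdh9 with Cdh8) to 0.69 (Cdh12 with Cdh18, with Cdh12 read in 1 cell). Within V1 L4 the r of Cdh10 with Cdh8 was 0.03 (n = 42), within S1 L4 0.28 (n = 34), within V1 L5 0.29 (n = 17) and within S1 L5 0.45 (n = 16).

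Levels of different genes can be compared only per length, for which the deposited RPKM (reads per kilobase of gene per 1000000 reads) were used, as mean log2(RPKM + 1). Cdh13 came first in each group, at 7.71 in V1 L5, 7.49 in S1 L5, 7.37 in V1 L4 and 6.53 in S1 L4. Its gap to the next member was 2.26 (SD 1.25 over 6 dates) in V1 L4, 3.91 (SD 1.79 over 4 dates) in V1 L5 and 3.57 (SD 1.44 over 4 dates) in S1 L5. In S1 L4 the next member was Cdh7 at 5.71, a gap of 0.82 against an SD of 1.87 over 7 dates, so these 2 did not differ beyond their spread. In V1 L4 the order went on as Cdh7, Cdh9, Cdh8, Cdh10, Cdh11, Cdh18 and Cdh12, and no neighbours in it differed beyond their spread over dates. In S1 L4 the order was Cdh7, Cdh9, Cdh11, Cdh10, Cdh8, Cdh18, Cdh12 and Cdh6, in which only Cdh7 and Cdh9 differed beyond it, by 1.68 (SD 1.37). In V1 L5 Cdh9 followed Cdh13 at 3.80, and Cdh7 stood lower, at 2.24 after Cdh10 at 2.39, and in S1 L5 Cdh9 and Cdh7 stood level at 3.92.

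Lists of the catenins and of other cadherins showed no common direction. In L4 the median S1 minus V1 difference was 0.04 over the type I list, 0.04 over the other type II list and -0.18 over the catenins, beside 0.01 over the genes tested. Of 5 type I cadherins, the branch that includes E- and N-cadherin, Cdh2 (N-cadherin) was 1.85 higher in S1 L4 than V1 L4, less than its SD over dates of 2.22, and the other 4 stayed within the fold. Of 7 catenins, Ctnnd1, which binds the inner tail next to the membrane, was -1.08 in S1 L4, lower on each of 5 dates with an SD of 1.20. In L5 the catenin Ctnnb1, which also acts in Wnt signalling, was 1.53 higher in S1, higher on 3 of 4 dates, and the related Jup was -1.95, lower on each of 4 dates. Adam10, a protease that cuts cadherins, was -2.27 in S1 L5, lower on each of 4 dates. Of 4 other type II cadherins, Cdh22 was -1.22 in S1 L5, lower on 2 of 4 dates. Between layers, Cdh2 was 2.37 higher in L5 of V1 and Cdh4 (R-cadherin) was -1.76, each in the same direction on both dates, and in L5 of S1 Ctnnb1 was 1.83 higher, on 3 of 3 dates. A further 3 catenins were past the fold between layers. In V1 these were Ctnna1 at -1.20 (SD 2.43 over dates), Ctnna2 at -1.12 (SD 1.21) and Jup at 1.49 (SD 3.73). Over both areas Jup was at 1.07 (SD 1.30). Each difference was smaller than its SD, and none of the 3 met the minimum counts there. In V1, Ctnna1 and Jup each had 1 date in either direction. Cdh5, which marks vessels, had 2 reads in all, in 1 cell.

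For each of the 7 members with at least 32 counts in at least 10 kept cells, the other genes whose log2(CPM + 1) was most alike over the kept cells were sought among 9992 genes. The likeness was weak throughout, and the best of so many genes is high by selection. Cdh7 was most like Luzp2 (Pearson r = 0.51, and 0.49 after the mean of each group and date was removed), then Pgm3 and Gria3. Cdh13 was most like Zfr (r = 0.48), Tmem179 and Dgkg, and Cdh8 was most like Sfrp2 (r = 0.45), Pcsk5 and Pcdh19. Cdh10 was most like Smg5 (r = 0.43), Timp3 and Rps6kl1, and Cdh18 was most like Sez6 (r = 0.42), Ptp4a1 and Camk4. Cdh11 was most like Ptma (r = 0.40), Chd4 and Egfl7, and Cdh9 was most like Lama4 (r = 0.36), Golga4 and 4833424O15Rik.

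Against genes that name SOM cell types, Cdh8 was read in 18 of the 20 V1 L4 cells with a Calb2 read and in 15 of the 22 without. It was read in 16 of the 22 with an Hpse read and in 17 of the 20 without. In S1 L4 it was read in 5 of the 5 cells with Calb2 and 5 of the 29 without, and in 5 of the 23 with Hpse and 5 of the 11 without. Pdlim5 shares a type name with Calb2, and Cbln4 with Hpse, and they did not follow these directions throughout. In V1 L4, Cdh8 was read in 10 of the 13 cells with Pdlim5 and 23 of the 29 without. It was read there in 21 of the 28 with Cbln4 and 12 of the 14 without. In S1 L4 it was read in 0 of the 2 with Pdlim5 and 10 of the 32 without. With Cbln4 it was read in 8 of the 23, and without in 2 of the 11. The cells with Calb2 and with Hpse were in part the same, with both read in 5 V1 L4 cells and 1 S1 L4 cell.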

How the data were processed

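Patch-seq of single SOM+ neurons of mouse cortex was analysed from the tables the authors deposited. Per the labels and methods, RNA was amplified by Smart-seq2 and read from 1 end, and the submitters' processing notes name bcl2fastq 2.20, STAR 2.4.2a and mm10. The authors deposited read counts per gene and the matching RPKM; a further table of cell annotations was not used. Counts do not use molecular identifiers, so intervals cover counting error only. Entries sharing a symbol were summed (24490 entries, 23998 symbols). No pair of cells had identical counts.

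CPM and log2(CPM + 1) were computed in Python 3.11 with NumPy and pandas. Members and gene lists were chosen with earlier results of these data known. Named genes are all 10 members, list genes past the fold, marker genes, and the 3 genes most alike. The list of enzymes that cut cadherins is not reported here in full. With no animal labels, no test was fitted; alternatives were another scaling (TMM, edgeR 4.0.16), RPKM, thinning to 250000 reads (random seed 1), pseudocounts of 10 and 0.1, no cell-type rule, a stricter fold, differences within dates and leaving out each date. The steps were checked on simulated counts.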

Additional observations from a re-analysis of the deposited data

Results flagged for a closer look

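Ctnnb1, the catenin that also acts in Wnt signalling, had L5 minus L4 differences of opposite sign in the 2 areas on every date compared. In V1 the difference in mean log2(CPM + 1) was -0.82 (SD 1.42 over 2 dates, from 17 L5 and 7 L4 cells), which was within the fold and smaller than its SD. In S1 it was 1.83 (SD 1.21 over 3 dates, from 16 L5 and 12 L4 cells). Whether the areas differ was not tested.

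Cells left out of the comparisons also held cadherin reads. In the 4 S1 L4 cells with enough genes but no Sst read, 8 of the 10 members had more than 3 counts in at least 1 cell. Cdh20, which had no read in the 76 kept L4 cells, had 193 counts in 1 of these 4 cells and 7 in another, and Cdh6 had 213 counts in the cell with 193 counts of Cdh20. In the left-out V1 L5 cell with more Slc17a7 than Gad1 and Gad2, 8 members had more than 3 counts, with Cdh13 at 874 CPM, 85 counts of Cdh12 and Cdh6 at 76.3 CPM. No kept V1 L5 cell had a read of Cdh12.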

How the results depend on the processing

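Of the recomputed counts of members past the fold and mean members per cell, 89 stayed close to the value above (counts within 1.5 times, means within 1 SD over cells) and 17 did not. The SD over cells was 1.36 to 1.64 members, a wide limit for a mean, so a mean that stayed within it says little. With a fold limit of 2 in place of 1, the count was 1 in the L4 area comparison, 1 in the L5 area comparison, 2 for layers in V1 and 1 for layers over both areas. With a pseudocount of 0.1 it was 4 in the L5 area comparison and 5 for layers in S1, and with a pseudocount of 10 it was 3 for layers in V1 and 1 over both areas. The mean of differences within dates gave 3 for layers in V1 and 5 in S1. RPKM gave 1 and thinning gave 2 for layers over both areas. L4 cells of all dates gave 3 in V1 and 2 over both areas, and Cdh8 over both areas then changed sign, to -0.24, the 1 reversal among 202 recomputed values of 16 differences past the fold. The share of all genes with the minimum counts past the fold moved with some of these settings too. In the L4 area comparison it was 1.05% with a fold limit of 2 and 2.31% with a pseudocount of 10. It was 32.1% with a pseudocount of 0.1 and 27.9% for differences within dates, against 15.8% above. The changed counts are therefore not read as a result about the members, and their cause was not tested.

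Leaving out each date in turn gave 2 to 3 members in the L4 and in the L5 area comparison. Between layers it gave 3 to 6 in V1, 3 to 5 in S1 and 2 to 4 over both areas. The share of genes past the fold then ran from 16.6% to 21.9% in the L4 and 35.4% to 39.8% in the L5 area comparison. Between layers that share ran from 41.7% to 49.7% in V1, 36.7% to 42.5% in S1 and 26.5% to 32.1% over both areas. Mean members per cell then ran from 5.17 to 5.45 in V1 L4, 4.46 to 4.72 in S1 L4, 3.71 to 4.00 in V1 L5 and 4.36 to 4.85 in S1 L5. Cdh8 in the L4 area comparison ran from -4.95 to -1.74 over 18 alternatives and Cdh10 from -2.66 to -1.07. Cdh7 between layers over both areas ran from -4.75 to -2.34 over 12.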
